A study of Mus musculus with 19 samples.

Results

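The colony-stimulating factors and their receptors were followed at the tenotomy site of mice after burn/tenotomy, the injury used to provoke heterotopic ossification, in which bone forms within soft tissue. The 8 genes were taken by their symbols from the 27998 genes of the count tables: the ligands Csf1, Il34, Csf2 and Csf3, and the receptor genes Csf1r, Csf2ra, Csf2rb and Csf3r. All 8 were listed in the tables of all 19 libraries. Single cells of the dissociated site were captured in droplets and their transcripts were read from the 3′ end, where each carries a molecular identifier (UMI) by which PCR copies are collapsed. Day 0, day 7 and day 21 had 4 libraries each and day 3 had 3, and a further 4 were of mice that were given p7N3, a peptide that activates CD47, at 10 mg/kg daily from 3 days before to 3 days after the injury.

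The injury combined a scald of 30% of the body surface on the back with transection of the Achilles tendon. The labels list that scald for every library, those of day 0 included, while the study's text describes day 0 as uninjured. C57 and LysmCre/Tgfb1fx/fx mice are named for all libraries together, and no library has a genotype of its own in the labels. In the latter strain the lysozyme M promoter drives Cre, and hence loss of Tgfb1, in myeloid cells, and its part in these values cannot be told apart from the groups. The study's methods describe young adult male C57BL/6J mice. No vehicle is named in the labels for the day 7 libraries without peptide, and the harvest day of replicate 4 of p7N3 is absent from them. The study's text compares p7N3 with mice given PBS, and describes a longer course of daily injections than the one given above. Nothing in the labels says whether a library is 1 animal or a pool, so that the p-values below measure the spread between libraries.

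CSF1 and IL-34 are the ligands of CSF1R, a receptor tyrosine kinase on which monocytes and macrophages depend for survival and proliferation. GM-CSF, encoded by Csf2, binds a receptor made of the specific alpha chain encoded by Csf2ra and the beta chain encoded by Csf2rb, which is shared with the receptors of IL-3 and IL-5. It acts on macrophages, dendritic cells and granulocytes. G-CSF, encoded by Csf3, drives the production and release of neutrophils through the receptor encoded by Csf3r. Ligand and receptor usually sit on different cells, so the cells that held each transcript were determined first.

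On GRCm38, Csf1 lies at chr3:107741048-107760469 on the minus strand, Csf2ra at chr19:61223957-61228429 on the minus strand and Csf3r at chr4:126024550-126044440 on the plus strand. Promoters of 4 of the 8 genes, from 250 bases before to 50 bases after the start, were in the RefSeq table for GRCm38.p6. Those of the ligand with the most stromal UMIs and of a pair of myeloid receptors are shown because their transcripts lay in different lineages. Capitals mark matches on either strand to GAGGAA, the core bound by the myeloid factor PU.1, or to the NF-kB site. The remaining motif searched, the AP-1 site TGANTCA, was not found in any of the 4.
Csf1 promoter, chr3:107760420-107760719, minus strand: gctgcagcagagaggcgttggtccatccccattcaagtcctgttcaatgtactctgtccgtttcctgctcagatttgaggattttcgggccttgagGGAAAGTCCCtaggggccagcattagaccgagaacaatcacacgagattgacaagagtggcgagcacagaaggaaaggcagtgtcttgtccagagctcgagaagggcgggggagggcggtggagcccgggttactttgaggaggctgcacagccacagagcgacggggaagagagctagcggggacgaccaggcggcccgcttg
Csf2ra promoter, chr19:61228369-61228668, minus strand: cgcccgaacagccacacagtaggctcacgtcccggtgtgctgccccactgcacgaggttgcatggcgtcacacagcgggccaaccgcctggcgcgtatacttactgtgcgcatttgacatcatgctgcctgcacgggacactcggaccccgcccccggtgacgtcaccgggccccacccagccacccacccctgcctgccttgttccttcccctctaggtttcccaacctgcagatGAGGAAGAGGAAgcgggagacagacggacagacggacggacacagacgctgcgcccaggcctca
Csf3r promoter, chr4:126024409-126024708, plus strand: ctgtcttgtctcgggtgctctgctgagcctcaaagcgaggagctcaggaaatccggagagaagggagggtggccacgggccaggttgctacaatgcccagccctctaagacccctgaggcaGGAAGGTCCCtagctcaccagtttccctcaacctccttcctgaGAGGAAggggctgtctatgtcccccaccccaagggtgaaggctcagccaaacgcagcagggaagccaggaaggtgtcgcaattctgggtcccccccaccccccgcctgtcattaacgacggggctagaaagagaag

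The Csf2ra promoter held 2 adjoining GAGGAA cores, the Csf3r promoter 1 such core and 1 NF-kB site, and the Csf1 promoter 1 NF-kB site. The fourth promoter, that of Csf2 (chr11:54249850-54250149), held none of the 3 motifs. This window lies wholly upstream of the Csf2 gene coordinates given below, which end at 54249667 on the minus strand. The bases next to that end were not searched. Of 32851 promoters of the same length, 28.3% held GAGGAA, 8.46% the NF-kB site and 7.81% TGANTCA, so that a match is a description and no evidence of binding.

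Il34 lies at chr8:110741829-110805924 (minus strand), Csf1r at chr18:61100598-61132149 (plus), Csf2 at chr11:54247271-54249667 (minus), Csf2rb at chr15:78325752-78353847 (plus) and Csf3 at chr11:98701263-98703629 (plus). Csf2rb has a near-identical neighbour, Csf2rb2, at chr15:78282507-78305721 (minus), and how reads that fit both were shared is not given in the sources used here. Csf2rb had 45 to 2747 UMIs in a library and Csf2rb2 17 to 949, so both are reported as uncertain in their split.

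After cells with fewer than 500 genes or over 25% mitochondrial UMIs were left out, 39541 remained, with 571 to 3668 cells and 3019467 to 39870492 UMIs in a library. The day 0 libraries were the shallowest, at 3019467 to 5383855 UMIs, so that their rare transcripts are the least precise. Libraries shared 999 barcodes over 171 pairs, against 992 expected by chance. Levels are in CPM, the UMIs of a gene divided by all UMIs of a lineage's cells in a library and brought to the same total everywhere, and are given as mean ± SD over libraries. Lineages were named after fixed markers with the ending "-like", after 52 genes, the 8 members and the other pathway genes, had been kept out of the clustering. The share of monocyte/macrophage-like cells was 9.80% at day 0, 64.7% at day 3, 30.1% at day 7, 11.2% at day 21 and 33.7% with p7N3. Stromal-like cells were 13.6% to 38.3% of each group, endothelial-like cells 32.1% at day 0 and 1.70% at day 3, and granulocyte-like cells 7.23% at day 3 and at most 1.60% otherwise. Differences in a total over all cells cannot separate fewer cells of a type from less RNA per cell, so each gene is also given within lineages.

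Csf1 and Il34 were held mainly by cells other than myeloid ones. Stromal-like cells held 76.6% ± 6.82 (SD, n = 4) of all Csf1 UMIs at day 0, 71.1% ± 9.08 (n = 3) at day 3, 71.8% at day 7, 71.4% at day 21 and 68.7% with p7N3. Pericyte/smooth muscle-like cells held 29.2% ± 6.61 of Il34 at day 0 and 55.6% to 60.3% in the 4 other groups. At day 0 endothelial-like cells held 30.9% ± 11.2 of it and Schwann cell-like cells 18.1% ± 4.04. Of the 81 endothelial-like Il34 UMIs of day 0, 75 lay in a small cluster led by Fabp4 and Rgs5. The receptor Csf1r was the reverse, with 74.0% to 89.2% of its UMIs in monocyte/macrophage-like cells. Csf2rb was divided, since endothelial-like cells held 46.9% of its UMIs at day 0 and 45.5% at day 21, but 6.10% at day 3, when monocyte/macrophage-like cells held 62.8%. Csf3 UMIs were spread over endothelial-like (29.4%), monocyte/macrophage-like (34.4%) and stromal-like cells (27.2%) at day 3, and 88.4% of them were endothelial-like at day 21. These shares follow the abundance of each lineage as well as its level.

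**Figure D1:**
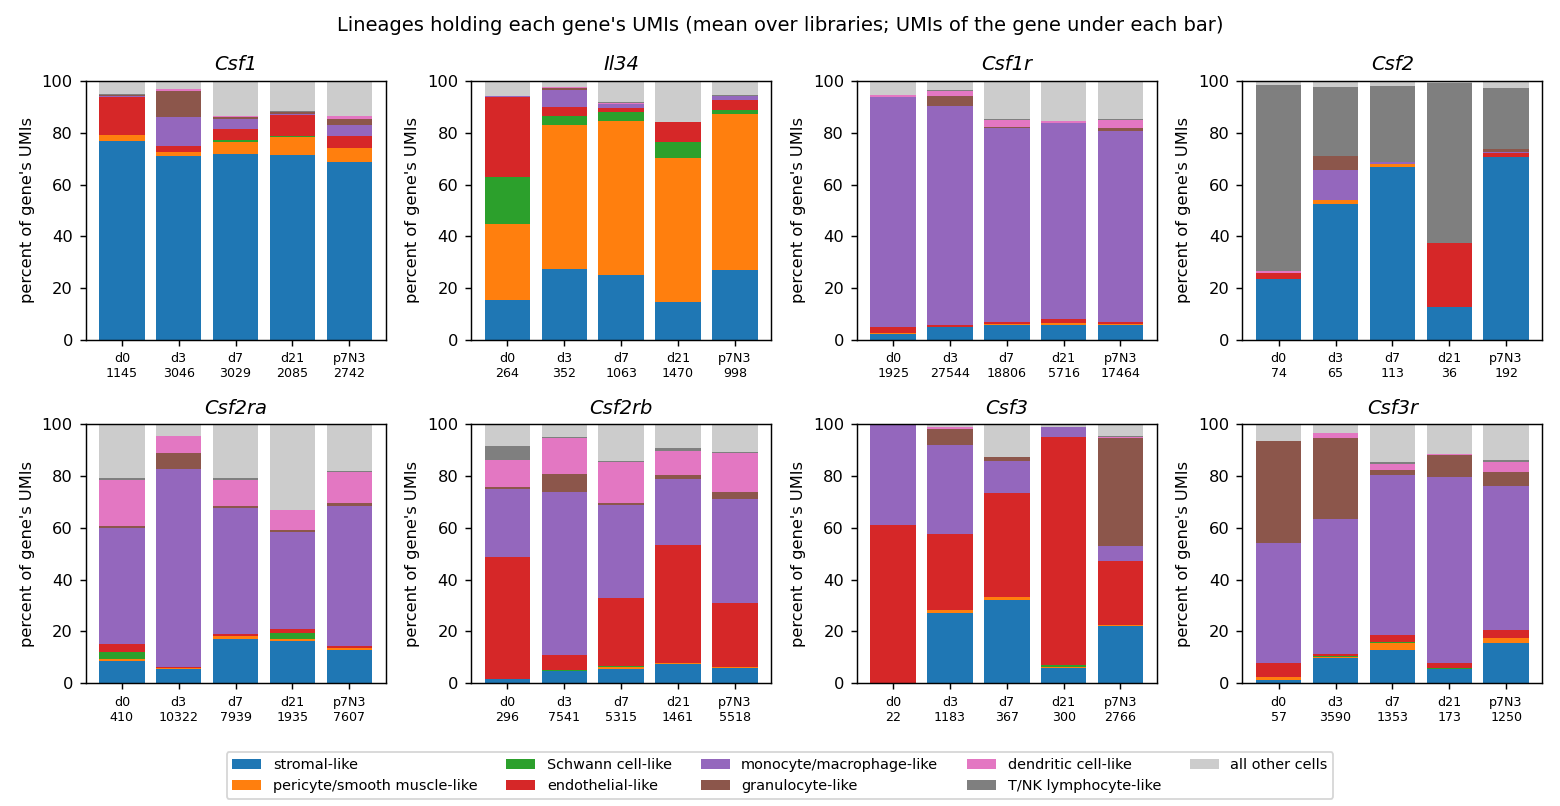
Percent of each gene's UMIs (y axis) by lineage (colours) in each group (x axis), as the mean over libraries, with the total UMIs of the gene under each bar. Csf1 was held mainly by stromal-like and Csf1r by monocyte/macrophage-like cells, while Csf2 had only 36 to 192 UMIs in a group. Il34 was held mainly by pericyte/smooth muscle-like cells except at day 0, when they held 29.2% and endothelial-like cells 30.9% of it.

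Summed over all cells, 7 of the 8 members had enough counts to be tested between day 3 and day 0, and all 7 were called, 5 higher and 2 lower. In edgeR's quasi-likelihood test with Benjamini-Hochberg adjustment, 74.6% of all genes were called in this comparison, so that the count by itself sets the members little apart. The median log2 difference was 2.64 for the members and -0.0032 for all genes. The latter is set by the scaling, and was -0.351 with total UMIs in place of TMM factors. Monocyte/macrophage-like cells went from 9.80% to 64.7% of cells between these groups, and their part in the member median was not tested. From day 3 to day 7, 1 member rose and 6 fell of 8 tested (57.2% of genes called), and from day 7 to day 21, 2 rose and 4 fell of 8 (44% called). The 4 receptor genes and Csf3 rose to day 3 and fell to day 7. Csf1 and Il34 moved the other way at day 3.

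Csf1r in all cells rose from 112 ± 25.2 CPM (n = 4) at day 0 to 311 ± 19.8 (n = 3) at day 3 and was 133 ± 30.9 at day 7 and 87.9 ± 24.7 at day 21. Csf3r went from 3.64 to 41.7, 9.56 and 2.74 CPM over the same days, Csf2ra from 23.3 to 117, 55.7 and 28.3, and Csf2rb from 17.5 to 85.8, 37.7 and 20.4. The day 3 libraries were above all day 0 and all day 7 libraries for each of the 4 receptors. In these comparisons 74.6% and 57.2% of all genes were called, and how many other genes separated without overlap was not counted. The total of Csf1 was 67.2 ± 5.84 CPM at day 0, 34.6 ± 4.08 at day 3, 21.4 ± 3.30 at day 7 and 30.6 ± 6.38 at day 21. That of Il34 was 16.3 ± 3.73, 3.89 ± 0.859, 7.48 ± 0.812 and 21.1 ± 2.47. The late change of Csf1 (log2 0.48 ± 0.16 SE, adjusted p = 0.034) rested on single libraries, since leaving out any 1 of day 7 replicates 2, 3 and 4 or of day 21 replicates 1, 2 and 3 gave adjusted p values of 0.051 to 0.091. That of Csf1r (log2 -0.64 ± 0.21, adjusted p = 0.034) likewise lost its call without replicate 1 or 4 of day 7 or of day 21 (0.057 to 0.084).

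Csf1, the main growth factor of macrophages, fell in the stromal-like class as a whole after injury and partly returned. At day 0 its level was 144, 153, 137 and 162 CPM in the 4 libraries. The 3 libraries of day 3 had 76.3, 72.3 and 80.2 CPM, all below every day 0 library (log2 -0.87 ± 0.10 SE, adjusted p = 4e-06, edgeR). At day 7 the values were 40.2, 20.9, 31.8 and 30.1 CPM, again without overlap with day 3 (log2 -1.37 ± 0.17, adjusted p = 1.3e-04). The day 21 libraries had 64.5, 66.8, 59.2 and 38.0 CPM. The last of these was below the highest day 7 library, and the difference passed the test (log2 0.94 ± 0.20, adjusted p = 0.0057).

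The stromal-like class was made of different clusters on different days, led by Myoc at day 0, by Prg4 at day 3, by Sfrp4, C1qtnf3, Crabp1 and Sfrp1 at day 7 and by Sfrp4 at day 21. Csf1 differed between them. The Myoc-led cluster had 151 ± 10.7 CPM at day 0, 95.8 ± 13.8 at day 7 and 114 ± 13.3 at day 21. The Sfrp4-led cluster had 137 ± 5.52 CPM at day 0, 68.6 ± 9.92 at day 7 and 70.6 ± 10.1 at day 21. The cluster led by C1qtnf3 and Scx, the latter a tendon transcription factor, had 12.6 ± 3.20 CPM at day 7 and 13.5 ± 4.15 at day 21, and that led by Crabp1 and Lrrc15 had 21.3 ± 1.20 at day 7. Both clusters present at day 0 and day 7 thus had lower Csf1 levels at day 7, and the day 7 class also held clusters of low Csf1 that had no 10 cells in a day 0 library. From day 7 to day 21 the Sfrp4-led and C1qtnf3-led means moved by less than their SD, and the Myoc-led mean was higher. The class had 5190 cells at day 7 and 1887 at day 21. Cells led by C1qtnf3, Crabp1 and Sfrp1 went from 1508, 1075 and 807 at day 7 to 296, 76 and 51 at day 21. Those led by Sfrp4 went from 1588 to 1142, and were a larger part of the class at day 21. The part of this change in the later rise of the class was not tested.

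In the fit, stromal-like cells had 27.6 times the Csf1 level of monocyte/macrophage-like cells at day 0 (149 ± 10.8 against 4.67 ± 3.59 CPM). In the latter lineage Csf1 fell from 7.73 ± 2.37 CPM at day 3 to 4.18 ± 1.07 at day 7 (log2 -0.79 ± 0.25, adjusted p = 0.031), a call lost without day 3 replicate 3 or any 1 of day 7 replicates 1, 2 and 3 (0.054 to 0.12). The ratio of the lineages was 9.06 at day 3, 6.17 at day 7 and 27.9 at day 21, and Csf1 was higher in the stromal-like cells of every library (adjusted p = 1.9e-15, 3.5e-13, 8.3e-10 and 1.8e-10, edgeR with the library as a block). Of the members, 1 was higher and 3 lower in stromal-like cells of 4 tested at day 0 (56.8% of genes called), 2 and 4 of 7 at day 3 (79.1%), 2 and 4 of 7 at day 7 (76.9%) and 2 and 4 of 6 at day 21 (65.8%). Those higher were Csf1 and, from day 3, Il34, and those lower were receptor genes. In endothelial-like cells Csf1 was 30.4 ± 8.49 CPM at day 0, 23.9 ± 5.50 at day 3, 13.5 ± 1.82 at day 7 and 22.5 ± 4.33 at day 21, lower than in stromal-like cells by 1.84 at day 3 and by 1.47 at day 7 on the log2 scale (adjusted p = 4.8e-07 and 1.9e-05, lower in 3 of 3 and 4 of 4 libraries). Endothelial Csf1 fell from day 3 to day 7 (log2 -0.92 ± 0.22, adjusted p = 0.020), a call lost without day 3 replicate 1 or replicate 2 (0.091 and 0.065), and rose to day 21 (log2 0.74 ± 0.18, adjusted p = 0.0085). The endothelial-like clusters led by Timp4 and by Plvap had 42 and 546 cells at day 7, and 354 and 276 at day 21. The part of this change in endothelial Csf1 was not tested.

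Granulocyte-like cells, led by the neutrophil genes S100a8 and S100a9, also held Csf1. This cluster was mixed, since of its 399 cells at day 3, 41 at day 7 and 179 with p7N3, 88, 16 and 110 took a monocyte/macrophage-like name when the cells were clustered more finely (Leiden resolution 2). Their level at day 3 was 61.7, 73.6 and 111 CPM, against 6.40, 6.32 and 10.5 CPM in monocyte/macrophage-like cells of the same libraries (log2 3.75 ± 0.15, adjusted p = 2.1e-10, edgeR with the library as a block). The granulocyte-like values overlapped those of the stromal-like cells at day 3. Of 6 members tested in granulocyte-like against monocyte/macrophage-like cells, 5 were higher and 1 lower at day 3, when 29.5% of genes were called. At day 7 only 2 libraries had 10 granulocyte-like cells, with 113 and 165 CPM of Csf1, and 2 members were higher and 1 lower of 6 (3.71% called), none of which was called at the finer clustering (adjusted p = 0.30 for Csf1). The finer granulocyte-like cells of day 3 had 69.5, 81.3 and 152 CPM of Csf1, and the cells that left them 9.19, 0 and 11.7. The granulocyte-like cluster as a whole, before this split, held 10.2% ± 8.30 of all Csf1 UMIs at day 3 and at most 2.35% in the other groups.

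**Figure D2:**
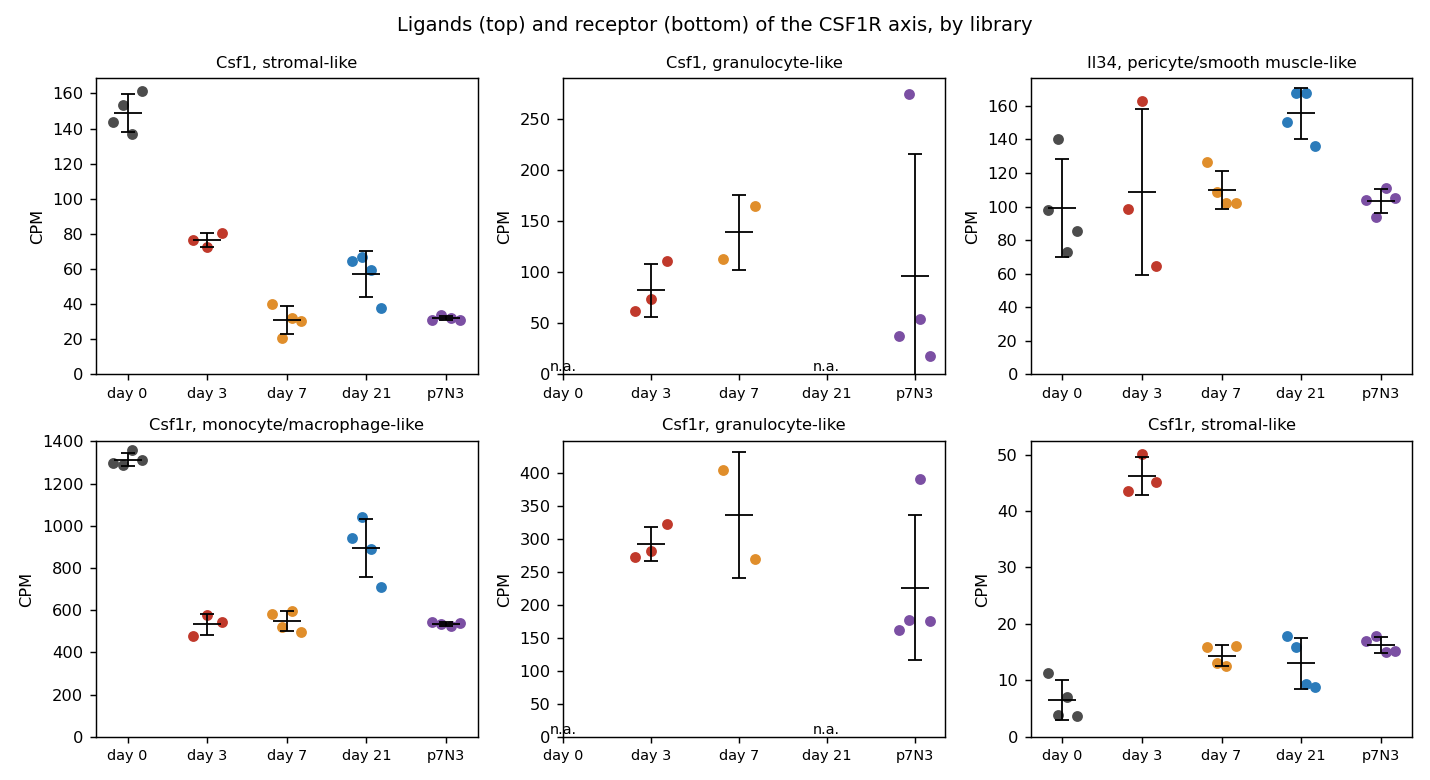
CPM (y axis) in each library (points) by group (x axis), with the mean and SD as bars, for Csf1 in stromal-like and granulocyte-like cells, Il34 in pericyte/smooth muscle-like cells and Csf1r in 3 lineages. Stromal-like Csf1 fell from 149 CPM at day 0 to 30.7 at day 7, and Csf1r in monocyte/macrophage-like cells fell from 1313 to 534 CPM at day 3, while granulocyte-like cells could not be summed at day 0 and day 21.

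Il34, the second ligand of CSF1R, was high in pericyte/smooth muscle-like cells in every group, and in Schwann cell-like cells at day 0. Pericyte/smooth muscle-like cells had 97.9, 140.4, 73.1 and 85.5 CPM at day 0, 98.6, 163 and 64.7 at day 3, 126, 109, 102 and 102 at day 7, and 151, 168, 168 and 136 at day 21. The 4 values of day 21 lay above those of day 7, and the values of the 3 earlier days overlapped. No test was made in this lineage. Within it, the Rgs5-led cluster (Rgs5 is a pericyte marker) had 294 ± 63.0 CPM at day 0 over 22 cells of 2 libraries, 124 ± 48.4 at day 3, 118 ± 15 at day 7 and 197 ± 24.5 at day 21. The Myh11-led smooth muscle cluster had 68.9 ± 26.2 CPM at day 0, 52.0 ± 19.97 at day 7 and 89.5 ± 10.8 at day 21. Both were thus higher on average at day 0 than at day 7, while the class went from 37 Rgs5-led and 144 Myh11-led cells at day 0 to 474 and 88 at day 7. Schwann cell-like cells had 149.8, 140.2, 88.3 and 108 CPM of Il34 at day 0, 18.6, 37.8 and 58.5 in the 3 day 7 libraries with 10 such cells, and 77.1, 57.0, 74.0 and 74.4 at day 21. The 3 groups of Schwann cell-like values did not overlap except between day 7 and day 21, where 1 value of day 7 exceeded 1 of day 21. Perineurial-like cells had no Il34 UMI in 31 cells of 3 libraries at day 0 and 77.3 ± 42.9 CPM (n = 3) at day 21, a level that overlapped that of the Schwann cell-like cells.

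Stromal-like Il34 was low, at 7.69 ± 3.59, 3.32 ± 1.38, 3.69 ± 0.666 and 8.05 ± 0.963 CPM on the 4 days, and rose from day 7 to day 21 in libraries that did not overlap (log2 1.19 ± 0.17, adjusted p = 7.1e-04, edgeR). The earlier difference, log2 -0.97 ± 0.41 with an adjusted p of 0.051, missed the threshold and overlapped, and passed without day 0 replicate 1 (0.019) or day 3 replicate 2 (0.015) and under 6 alternatives (0.021 to 0.047). Endothelial-like Il34 fell from 16.2 ± 7.05 CPM at day 0 to 3.91 ± 3.67 at day 3 (log2 -1.84 ± 0.58, adjusted p = 0.016). That call was lost without day 3 replicate 3 (0.054) and when the top scores of the doublet caller Scrublet were removed (0.070). It rose from 2.17 ± 2.22 at day 7 to 13.9 ± 4.15 at day 21 (log2 2.89 ± 0.55, adjusted p = 0.0022). A single small cluster of 223 cells, led by the endothelial gene Fabp4 together with Rgs5, held 75 of the 81 endothelial-like Il34 UMIs at day 0, 9 of 12 at day 3, 7 of 17 at day 7 and 94 of 102 at day 21. That cluster had 83 of the 1109 endothelial-like cells at day 0 and 4 of 98 at day 3. It had 27 of 736 at day 7 and 71 of 762 at day 21. The part of these cell numbers in the fall and rise of the class was not tested. Pericyte markers other than Rgs5 were not followed in that cluster.

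Csf1r, the receptor of both ligands, fell relative to the other RNA of the lineage that carried it while its total over all cells rose. Monocyte/macrophage-like cells had 1296, 1286, 1357 and 1312 CPM at day 0 and 479, 576 and 546 at day 3. Every day 0 library lay above every later one (day 3 against day 0: log2 -1.24 ± 0.10, adjusted p = 9.1e-07, edgeR). Day 7, at 580.0, 519, 597 and 497 CPM, overlapped day 3 (log2 0.10 ± 0.10, adjusted p = 0.45). At day 21 the level was 943, 1039.6, 891 and 711 CPM, above all day 7 libraries (log2 0.64 ± 0.12, adjusted p = 0.0043). Of the members tested in this lineage, 3 rose and 1 fell of 4 to day 3 (55.4% of genes called), 4 fell of 6 to day 7 (34%) and 1 rose of 5 to day 21 (12.7%).

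The monocyte/macrophage-like class also changed its clusters. One led by Cd209f, Ccl8 and Folr2, genes of resident tissue macrophages, made up most of it at day 0. Those led by Pf4 and by Chil3 and Ly6c2, the latter a gene of inflammatory monocytes, prevailed at day 3, and those led by Ms4a7 and Apoe and by Mmp12 and Gpnmb at day 7. Csf1r in the Cd209f-led cluster was 1432 ± 95.4 CPM at day 0, 607.95 ± 109.6 at day 3, 1087 ± 41.8 at day 7 and 1326 ± 86.4 at day 21, so the day 3 value was the lowest within this cluster as well. The Chil3-led cluster had 401 ± 43.3 CPM at day 3, the Pf4-led one 622 ± 29.4, the Mmp12-led one 319.7 ± 10.6 at day 7 and the Ms4a7-led one 629.9 ± 36.9. A cluster led by Acp5, Mmp9 and Ctsk, genes of osteoclasts, which need CSF1R to form, had 403 ± 36.8 CPM at day 3 and 442 ± 48.5 at day 7. Cluster values are descriptions without a test.

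Granulocyte-like cells had 273, 282 and 322 CPM of Csf1r at day 3, below the monocyte/macrophage-like cells of each library (log2 -0.52 ± 0.09, adjusted p = 4.9e-04), and 404 and 269 at day 7. The 39 monocyte/macrophage marker genes summed to 32097 to 37905 CPM in the granulocyte-like cells of day 3, against 43744 to 47078 in the monocyte/macrophage-like cells. Their part in the granulocyte Csf1r value was not tested. At day 7 the difference (log2 -0.87 ± 0.27, adjusted p = 0.035, 2 libraries) was no longer called under 5 of the alternatives, at adjusted p values of 0.076 to 0.97.

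Stromal-like Csf1r rose from 6.50 ± 3.56 to 46.3 ± 3.35 CPM at day 3 (log2 2.75 ± 0.22, adjusted p = 1.6e-07) and fell to 14.4 ± 1.86 at day 7 (log2 -1.75 ± 0.11, adjusted p = 2.8e-06). Endothelial-like Csf1r was 41.8 ± 9.22 and pericyte/smooth muscle-like Csf1r 41.9 ± 7.50 CPM at day 3, and the endothelial-like and stromal-like values overlapped (log2 -0.33 ± 0.16, adjusted p = 0.11). Lyz2, a lysozyme gene of myeloid cells, moved with them in stromal-like cells, at 53.4 CPM at day 0, 948 at day 3, 338 at day 7 and 100.0 at day 21. The 39 monocyte/macrophage markers summed to 1216 to 1391 CPM in stromal-like cells at day 0 with 36 of them detected, and to 4677 to 5012 at day 3 with all 39 detected. Their mean sum was 2878 CPM at day 7 and 2518 at day 21. The 22 granulocyte markers summed to 154 CPM at day 0 and 2713 at day 3. Endothelial-like Csf1r was 7.43 CPM at day 0, 11.5 at day 7 and 10.8 at day 21. The monocyte/macrophage markers summed there to 581, 3452, 1301 and 995 CPM at days 0, 3, 7 and 21. Both lineages thus had more Csf1r and more myeloid RNA at day 3 than at day 0 or day 7. The part of that RNA in Csf1r was not tested, nor whether both lay in the same cells. Barcodes without cells could be read for 1 library, day 0 replicate 1, and had 87.3 CPM of Csf1r against 148 in its cells.

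In stromal-like cells 5 members rose and 1 fell of 7 tested at day 3 (65.9% of genes called), 5 fell of 8 at day 7 (53.2%) and 2 rose and 2 fell of 7 at day 21 (33.1%). In endothelial-like cells 4 rose and 1 fell of 6 at day 3 (56.4%), 4 fell of 5 at day 7 (12.6%) and 2 rose of 6 at day 21 (31%). Endothelial-like against stromal-like cells, 2 members were higher and 1 lower of 7 at day 3 (42.9%) and 2 higher and 4 lower of 7 at day 7 (63.5%). Csf2rb and Csf3 were the 2 higher ones on both days. The 4 lower ones at day 7 were Csf1, Csf2ra, Il34 and Csf1r. Il34 (log2 -1.35 ± 0.54, adjusted p = 0.045) lost its call without day 7 replicate 1, 2 or 3 (0.058 to 0.22), and Csf1r (log2 -0.58 ± 0.17, adjusted p = 0.0097) without replicate 1 (0.062).

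Csf2, the GM-CSF gene, was barely detected. It had 74 UMIs at day 0, 65 at day 3, 113 at day 7, 36 at day 21 and 192 with p7N3, in 11, 23, 23, 7 and 40 cells. The 5 cells with the most UMIs held 91.9%, 66.2%, 54.9%, 94.4% and 62.5% of them. Day 0 had 53 stromal-like UMIs in 2 cells of replicate 1 and no UMI in the stromal-like cells of the other 3 libraries, and the empty barcodes of that replicate had 14.1 CPM against 10.4 in its cells. Monocyte/macrophage-like cells had no Csf2 UMI at day 0 and at day 21, which allows up to 2.28 and 0.604 CPM at a limit of 3 counts, a limit for counting error only. At day 3, 7 UMIs gave 0.159 ± 0.0295 CPM in them.

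T/NK lymphocyte-like cells held 16 of the 74 Csf2 UMIs at day 0, 20 of 65 at day 3, 35 of 113 at day 7, 33 of 36 at day 21 and 26 of 192 with p7N3. Stromal-like cells held 53, 32, 74, 1 and 152 of them. The mean over libraries of each library's own share was 71.7% ± 48.2 for T/NK lymphocyte-like and 23.7% ± 47.3 for stromal-like cells at day 0, 29.7% and 66.7% at day 7 and 61.7% and 12.5% at day 21, so that at day 0 it runs opposite to the pooled UMIs. The 3 libraries of day 0 with 10 such cells had 0, 56.4 and 18.7 CPM, the 4 of day 7 had 57.6, 0, 22.9 and 13.4, and the 4 of p7N3 had 25.8, 6.54, 72.6 and 8.75. The single day 3 library with 10 such cells had 212 CPM, from 20 UMIs in 2 cells. Stromal-like Csf2 was 1.05 ± 0.765 CPM at day 3 and 0.958 ± 0.558 at day 7. In all cells the level of day 21, at 0.146, 0.181, 2.63 and 0.0342 CPM, was set by replicate 3, in which 29 UMIs lay in 2 of 8 T/NK lymphocyte-like cells. Without it day 21 was below day 7 (log2 -2.91, adjusted p = 0.0031), and with it no difference was detected (log2 -0.39 ± 0.92, adjusted p = 0.76).

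Csf2ra, the alpha chain that makes the GM-CSF receptor specific, changed little within monocyte/macrophage-like cells. They had 174, 112, 144 and 115 CPM at day 0, 192, 170.3 and 179.9 at day 3, 138, 158, 136 and 167 at day 7, and 157, 146, 129 and 153 at day 21. Day 0 and day 3 overlapped in 1 library, and the difference passed (log2 0.41 ± 0.14, adjusted p = 0.023) but not without day 3 replicate 1 (0.058). The later differences missed the threshold (log2 -0.21 ± 0.10 and -0.09 ± 0.11, adjusted p = 0.12 and 0.65). Dendritic cell-like cells had 184, 211 and 172 CPM at day 3 and 191, 175, 157 and 179.7 at day 7. An unnamed cluster of 2229 cells led by the MHC class II genes H2-Eb1, H2-Ab1 and Cd74 had 239 ± 26.7 CPM at day 3, 279 ± 33.9 at day 7 and 314 ± 29.3 at day 21.

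Granulocyte-like cells had 219.6, 161 and 171 CPM of Csf2ra at day 3. Against monocyte/macrophage-like cells this gave log2 0.36 ± 0.09 (adjusted p = 0.010) although only 1 of 3 libraries was higher in CPM, and without day 3 replicate 1 the adjusted p was 0.088. Scaling by the total UMIs in place of TMM factors gave log2 0.01 (adjusted p = 0.93). Stromal-like Csf2ra rose from 5.24 ± 1.43 to 19.5 ± 1.06 CPM at day 3 (log2 2.01 ± 0.22, adjusted p = 3.3e-06). It was 18.0 ± 0.958 CPM at day 7 (log2 -0.17 ± 0.10, adjusted p = 0.16), when stromal-like Csf1r and Lyz2 were at the lower levels given above, and fell to 11.8 ± 1.97 at day 21 (log2 -0.57 ± 0.11, adjusted p = 0.0037).

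Set against Csf1r as a measure of myeloid RNA, stromal-like cells had 0.421 Csf2ra CPM per Csf1r CPM at day 3, beside 0.402 in endothelial-like and 0.339 in monocyte/macrophage-like cells. At day 7 the ratio was 1.25 in stromal-like, 0.495 in endothelial-like, 0.840 in pericyte/smooth muscle-like and 0.273 in monocyte/macrophage-like cells. The endothelial-like cells of day 7 had less Csf2ra than the stromal-like ones in 4 of 4 libraries (log2 -1.94 ± 0.17, adjusted p = 1.3e-06), while at day 3 the difference missed the threshold (log2 -0.38 ± 0.21, adjusted p = 0.17). Whether the difference itself changed between the days was not tested. Schwann cell-like cells had 25.7 ± 10.8 CPM of Csf2ra at day 0 and 32.1 ± 11.1 at day 21, from 11 and 39 UMIs, beside 1.59 ± 3.18 and 14.0 ± 15.4 CPM of Csf1r from 1 and 16 UMIs.

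**Figure D3:**
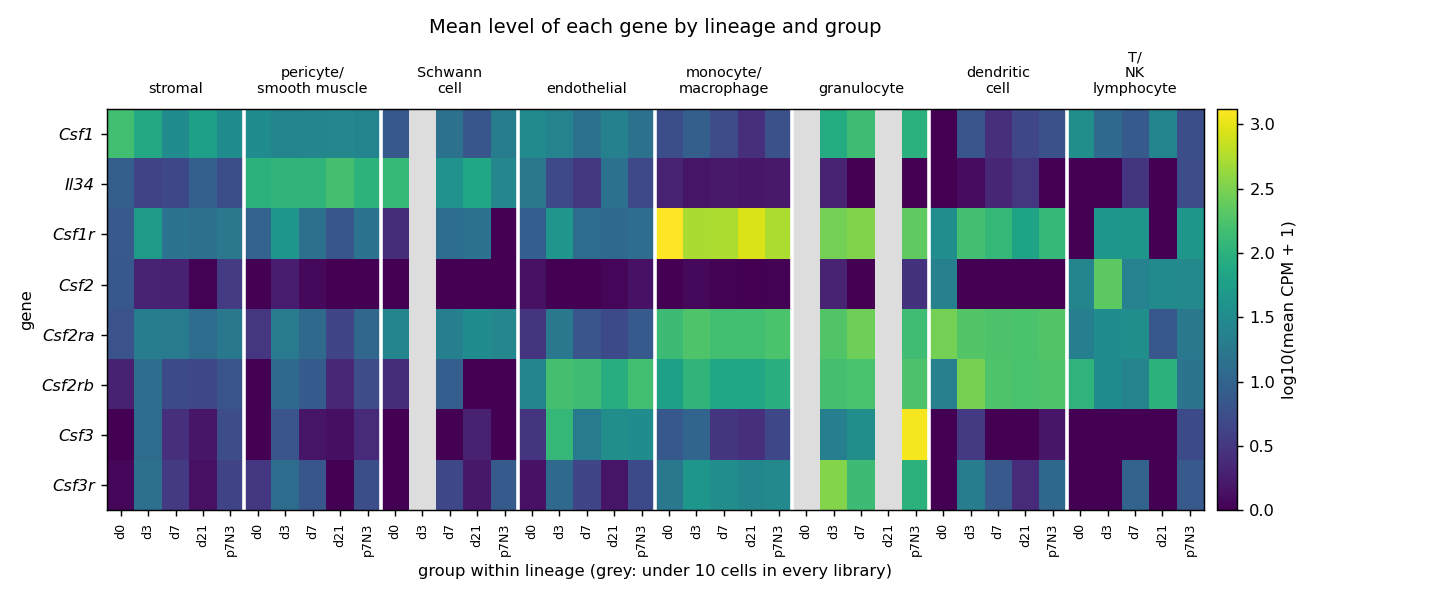
Mean level as log10(CPM + 1) (colour) of each member (rows) by lineage and group (columns), with grey where no library had 10 cells. Csf1r, Csf2ra and Csf3r were high in myeloid lineages, and Csf2rb was high in endothelial-like cells as well at day 3, at 156 CPM. At day 0 endothelial-like Csf2rb was 26.0 CPM, below the 58.9 of monocyte/macrophage-like and the 105 of T/NK lymphocyte-like cells.

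Csf2rb, the shared beta chain, had one of its higher levels in endothelial-like cells from day 3 on, beside those of the myeloid and dendritic lineages. T/NK lymphocyte-like cells had 105 ± 45.0 CPM at day 0, 23.9 ± 22.4 at day 7 and 100 ± 48.2 at day 21. These values rest on 16, 28 and 14 UMIs. Endothelial-like cells had 37.4, 22.7, 21.7 and 22.1 CPM at day 0 and 169, 169 and 129 at day 3, without overlap (log2 2.69 ± 0.19, adjusted p = 1.9e-07, edgeR). Day 7 had 202, 126, 111 and 128 CPM and day 21 had 107, 47.0, 75.7 and 116. Neither step passed (log2 -0.23 ± 0.20 and -0.68 ± 0.26, adjusted p = 0.51 and 0.061), and the second passed without day 21 replicate 4 (0.025) and under 5 alternatives (0.017 to 0.048). Stromal-like cells of the same libraries had 12.4 ± 2.15 CPM at day 3 and 4.03 ± 1.29 at day 7, below the endothelial-like cells of every library (log2 3.50 ± 0.16 at day 3 and 4.83 ± 0.10 at day 7, adjusted p = 1.6e-10 and 6.3e-12). The 39 monocyte/macrophage markers summed to 3138 to 3711 CPM in endothelial-like and 4677 to 5012 in stromal-like cells at day 3, and their part in Csf2rb was not tested.

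The endothelial-like class was mostly a Timp4- and Tcf15-led cluster at day 0 (952 cells) and a Plvap-led one later. Csf2rb was 18.96 ± 2.66 CPM in the former at day 0 and 33.2 ± 30.0 at day 21. It was 187 ± 37.8 CPM in the Plvap-led cluster at day 3, 172 ± 45.4 at day 7 and 159 ± 19.1 at day 21, and 174 ± 216 at day 0 over 29 cells of 2 libraries. The day 3 difference of the class thus came together with a change of its main cluster, whose part in it was not tested. The Plvap-led values of day 0 were too few and too spread to show whether Csf2rb also changed within that cluster. Csf2rb2, the near-identical neighbour, rose in endothelial-like cells as well (log2 2.46 ± 0.22, adjusted p = 1.4e-06, 75.6 CPM at day 3). Monocyte/macrophage-like Csf2rb rose from 58.9 ± 9.35 to 108 ± 8.62 CPM at day 3 (log2 0.89 ± 0.15, adjusted p = 3.4e-04), fell to 71.7 ± 8.36 at day 7 (log2 -0.54 ± 0.10, adjusted p = 0.0021) and was 72.5 ± 18.0 at day 21. Dendritic cell-like cells had 299, 306 and 292 CPM at day 3 and 199, 155, 195 and 173 at day 7, and granulocyte-like cells 158, 161 and 152 at day 3, above the monocyte/macrophage-like cells in 3 of 3 libraries (log2 0.87 ± 0.10, adjusted p = 1.2e-05).

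Csf3, the G-CSF gene, rose at day 3 in the endothelial-like and in the stromal-like class, each as a whole. Endothelial-like cells had 6.73, 0.840, 0 and 0.712 CPM at day 0 and 127, 61.3 and 170.0 at day 3 (log2 5.85 ± 0.52, adjusted p = 1.3e-06, edgeR). Day 7 had 14.9, 2.63, 21.3 and 37.2 CPM, all below day 3 (log2 -2.87 ± 0.50, adjusted p = 0.0039). Day 21 had 45.9, 22.8, 16.7 and 47.8, which overlapped day 7 (log2 0.99 ± 0.50, adjusted p = 0.16). The day 3 values rest on 359 UMIs in 35 of 98 endothelial-like cells. By cluster, the Plvap-led one had 139.5 ± 59.4 CPM at day 3, 11.4 ± 7.81 at day 7 and 61.2 ± 13.6 at day 21, and the 952 Timp4-led cells of day 0 had no UMI. Plvap-led cells of day 0 had 8.16 ± 11.5 CPM, from 1 UMI in 29 cells of 2 libraries. The day 3 difference of the class came together with the change of its main cluster, whose part in it was not tested. The small Fabp4- and Rgs5-led cluster held 70 of the 161 endothelial-like Csf3 UMIs at day 7, when the 11 such cells of 1 library had 280 CPM, and 61 of 272 at day 21.

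Stromal-like cells had no Csf3 UMI in any day 0 library, which allows up to 0.494 CPM over the group at 3 counts. At day 3 they had 11.8, 7.89 and 15.2 CPM (adjusted p = 1.8e-05 against day 0, edgeR), with a mean of 11.6 CPM that was 23.5 times that limit. They fell to 3.37, 0.865, 1.22 and 0.943 CPM at day 7 (log2 -2.97 ± 0.41, adjusted p = 2.5e-04). Endothelial-like cells exceeded stromal-like cells at day 3 in 3 of 3 libraries (log2 3.15 ± 0.15, adjusted p = 3.1e-10) and at day 7 in 4 of 4 (log2 3.14 ± 0.47, adjusted p = 1.1e-04). Monocyte/macrophage-like cells had 9.31 ± 2.69 CPM at day 3 and 2.05 ± 1.84 at day 7 (log2 -2.12 ± 0.49, adjusted p = 0.0075, and 0.062 with DESeq2). Against them the stromal-like cells did not differ in the test at day 3 (log2 0.15 ± 0.17, adjusted p = 0.42, and 0.029 without replicate 2) or at day 7 (log2 -0.58 ± 0.57, adjusted p = 0.37, and 0.022 without replicate 1, then lower in stromal-like cells). Granulocyte-like cells had 10.7, 29.5 and 23.3 CPM at day 3, above the monocyte/macrophage-like cells in 3 of 3 libraries (log2 1.48 ± 0.25, adjusted p = 3.7e-04). At the finer clustering the granulocyte-like cells had 8.18, 27.1 and 16.9 CPM, and the cells that left them 27.6, 51.8 and 38.9.

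**Figure D4:**
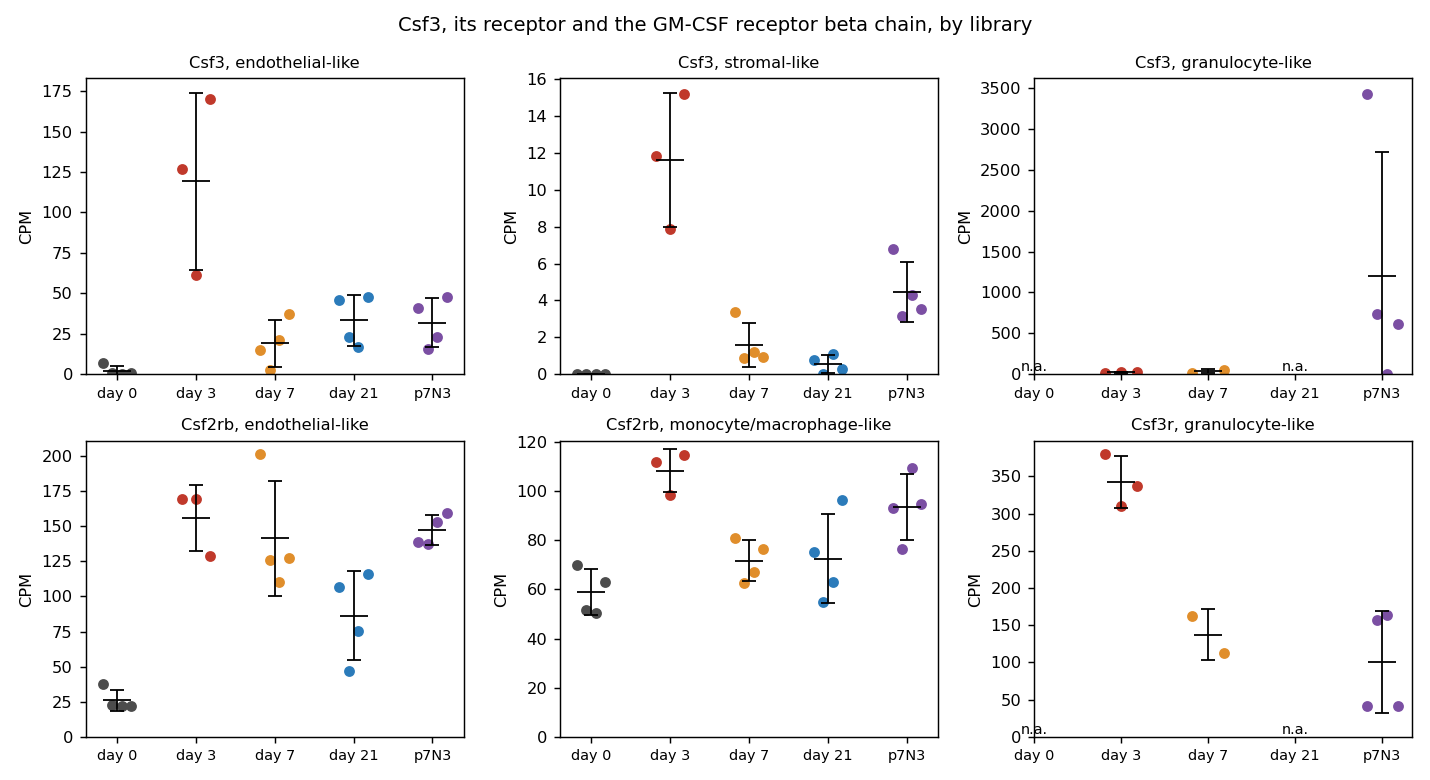
CPM (y axis) in each library (points) by group (x axis), with the mean and SD as bars, for Csf3 in 3 lineages, Csf2rb in endothelial-like and monocyte/macrophage-like cells and Csf3r in granulocyte-like cells. Endothelial-like Csf3 reached 61.3 to 170.0 CPM at day 3, and Csf3 with p7N3 ranged from 0 to 3434 CPM in the cluster named granulocyte-like, which also held cells of monocyte/macrophage markers.

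Csf3r, the receptor of G-CSF, was highest in granulocyte-like cells. These had 379.9, 310.5 and 336 CPM at day 3, against 40.7, 38.5 and 48.0 in monocyte/macrophage-like cells (log2 3.35 ± 0.10, adjusted p = 2.2e-11, edgeR with the library as a block), and 162 and 113 at day 7 (log2 1.95 ± 0.47, adjusted p = 0.0018, and 0.26 at the finer clustering). The 22 granulocyte markers summed to 52553 to 90085 CPM in these cells at day 3 and to 12388 to 24947 at day 7, with 16 of the 22 detected at day 7. Granulocyte-like cells held 31.5% ± 9.20 of all Csf3r UMIs at day 3 and 1.89% at day 7, and monocyte/macrophage-like cells 52.3% and 62.0%. Within the latter the level rose from 16.9 ± 4.08 to 42.4 ± 4.95 CPM at day 3 (log2 1.46 ± 0.27, adjusted p = 5.2e-04) and was 32.5 ± 2.40 at day 7 and 25.6 ± 3.29 at day 21. The step to day 7 (log2 -0.33 ± 0.11, adjusted p = 0.034) lost its call without any 1 of day 3 replicates 1 and 3 and day 7 replicates 1, 2 and 4 (0.052 to 0.15). The Chil3-led cluster of inflammatory monocyte genes had 63.0 ± 7.67 CPM at day 3 and the Pf4-led one 41.5 ± 4.61. Stromal-like Csf3r was 0.118 ± 0.235 CPM at day 0, 13 ± 5.35 at day 3, 2.38 ± 0.539 at day 7 and 0.394 ± 0.384 at day 21, beside the granulocyte markers given above for that lineage, and each step passed (log2 6.16, -2.50 and -2.59, adjusted p = 1e-05, 8.9e-05 and 0.0020). Granulocyte markers summed to 2180 to 3332 CPM in monocyte/macrophage-like cells at day 3 and to 312 to 706 at day 7, and their part in these values was not tested.

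The mice given p7N3 were compared with the day 7 libraries, for which the labels name no vehicle. In edgeR 0 of 8 members were called in all cells (0% of all genes called), 0 of 6 in monocyte/macrophage-like cells (0%), 0 of 8 in stromal-like cells (0.166%) and 0 of 6 in endothelial-like cells (0%). At an unadjusted p under 0.05 there were 7 of these 28 effects, and DESeq2 called 1 of them, stromal-like Csf3. Over all genes, edgeR found 1827 of 14882, 854 of 10844, 2294 of 13252 and 808 of 10265 at an unadjusted p under 0.05 in the 4 compartments. DESeq2 called 158, 26, 454 and 0. Csf1r in monocyte/macrophage-like cells was 535 ± 8.39 CPM with p7N3 and 548 ± 47.8 at day 7 (log2 -0.06 ± 0.08, adjusted p = 0.88). Stromal-like Csf1 was 32.0 ± 1.3 and 30.7 ± 7.92 CPM (log2 0.06 ± 0.15, adjusted p = 0.86). A p above the threshold does not show that the levels were alike.

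Csf3 gave the widest differences with p7N3. In all cells the libraries had 64.2, 6.57, 4.49 and 11.2 CPM, against 3.55, 0.928, 2.80 and 3.26 at day 7, without overlap (log2 3.05 ± 0.85, adjusted p = 0.29). Replicate 1 held 2084 of the 2766 UMIs, and without it the mean was 7.43 ± 3.45 CPM (n = 3). Stromal-like cells had 6.81, 3.15, 4.28 and 3.54 CPM against 3.37, 0.865, 1.22 and 0.943, overlapping in 1 library (log2 1.52 ± 0.41, adjusted p = 0.11; 0.012 with DESeq2). Without day 7 replicate 1 edgeR gave log2 2.12 with an adjusted p of 0.036. Endothelial-like cells had 40.8, 15.3, 23.1 and 47.8 CPM, which overlapped day 7 (log2 0.85 ± 0.48, adjusted p = 0.71).

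Pooled over libraries, 2049 of the 2766 p7N3 Csf3 UMIs lay in the cluster named granulocyte-like, 1831 of them in replicate 1. The mean of each library's own share was 41.9% ± 36.6 (0% to 87.9%) for this cluster. It was 24.7% ± 18.7 for endothelial-like and 22.3% ± 17.1 for stromal-like cells. The cluster's cells carried markers of both myeloid lineages in these libraries, so that the name holds for only a part of them. The 39 monocyte/macrophage markers summed to 36314 to 49959 CPM in its cells and the 22 granulocyte markers to 7323 to 33884, against 54367 to 58751 and 680 to 1384 CPM in the monocyte/macrophage-like cells. The cells had 3434, 740.2, 0 and 614 CPM of Csf3, from 1831, 113, 0 and 105 UMIs in 82, 33, 26 and 38 cells. The 0 of replicate 3 allows up to 27.2 CPM at 3 counts, and the 2 day 7 libraries with 10 such cells had 16.2 and 52.0 CPM. In replicate 1 the UMIs lay in 58 of the 82 cells (median 6203 UMIs per cell) and in 20 of 995 monocyte/macrophage-like cells (median 6238).

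At the finer clustering, chosen as an alternative for the fits and split in this way after the values were seen, 110 of the 179 cells were named monocyte/macrophage-like, and they held 1963 of the 2049 Csf3 UMIs. They had 4007, 2033 and 779 CPM of Csf3 in replicates 1, 2 and 4, from 66, 11 and 30 cells, and replicate 3 had only 3 such cells. Their Csf3r was 11.4, 19.004 and 0 CPM and their Csf1 2.29, 19.004 and 22.3 CPM. The granulocyte markers still summed to 19878, 9331 and 3264 CPM in these renamed cells. That is above the 680 to 1384 CPM of the p7N3 monocyte/macrophage-like cells of the main clustering, so the new name does not mark them as free of granulocyte RNA. The 69 cells that stayed granulocyte-like had 832, 60.0 and 0 CPM of Csf3 in replicates 1 to 3, with 177, 230 and 185 CPM of Csf3r and 198, 410 and 61.7 CPM of Csf1. Csf3 and the pair of Csf3r and Csf1 were thus mostly in different cells of the cluster. At that resolution 105 p7N3 cells formed part of a cluster led by Cxcl3, Ccl3, Il1a, Serpinb2 and Csf3 itself, although Csf3 was kept out of the clustering. No test was made in these cells.

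Csf2 with p7N3 was 2.31, 0.846, 0.709 and 2.31 CPM in all cells, against 0.963, 0.903, 0.656 and 0.636 at day 7 (log2 0.96 ± 0.40, adjusted p = 0.38). Stromal-like cells held 152 of the 192 UMIs in 25 cells. Csf2rb in monocyte/macrophage-like cells was 93.6 ± 13.5 CPM with p7N3 and 71.7 ± 8.36 at day 7 (log2 0.35 ± 0.11, adjusted p = 0.42), with an overlap in 1 library.

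The other genes of the pathway were followed as 6 lists, of which no gene was called with p7N3 in any of the 4 compartments. In monocyte/macrophage-like cells at day 3, Cebpb, a transcription factor of inflammatory myeloid cells, rose (log2 1.5 ± 0.18, adjusted p = 1.8e-05, 2576 against 942 CPM), as did Spi1, which encodes PU.1 (0.84 ± 0.13). In that list 2 rose and 2 fell of 5 tested, and of the receptor signalling genes 4 rose and 6 fell of 14, where 55.4% of all genes were called. Tyrobp, an adaptor of myeloid receptors, rose (log2 1.01), and Stat5b and the lipid phosphatase gene Inpp5d fell (log2 -1.03 and -0.92). Of the STAT feedback and target genes 2 rose of 4 tested, among them Pim1 (log2 1.00 ± 0.18, adjusted p = 3.6e-04), and none fell.

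From day 3 to day 7 in the same lineage, 6 of the 8 STAT feedback and target genes fell and 1 rose, where 34% of all genes were called. Socs3, the inhibitor induced by G-CSF and other cytokines, fell (log2 -1.18, adjusted p = 4e-05), as did Socs1 (-1.11) and Pim1 (-0.81). Of the signalling genes 0 rose and 4 fell of 16. Cebpb fell (log2 -0.96) and Irf8, a factor of monocytes and dendritic cells, rose (0.68 ± 0.13). From day 7 to day 21 Socs3 rose (log2 0.81, adjusted p = 0.0013) and Cebpb fell further (log2 -0.80). Of the 16 signalling genes 4 rose and 2 fell (12.7% of all genes called). From day 0 on, the monocyte/macrophage-like class changed its clusters, as given above. Granulocyte markers in it summed to 136 CPM at day 0, 2638 at day 3, 525 at day 7 and 109 at day 21. The part of either in the steps of these pathway genes, those to day 3 included, was not tested.

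In endothelial-like cells Kitl, the ligand of KIT and another haematopoietic growth factor, fell from 474 ± 21.9 to 105 ± 8.50 CPM at day 3 (log2 -2.05 ± 0.11, adjusted p = 2.2e-08) and rose to 272 ± 58.6 at day 21 (log2 1.35 ± 0.20 against day 7, adjusted p = 5.2e-04). Il3ra, the alpha chain that pairs with the shared beta chain to bind IL-3, rose at day 3 (log2 0.91 ± 0.26, adjusted p = 0.010, 47.7 CPM), as did Csf2rb2. The endothelial-like class went from mostly Timp4- and Tcf15-led cells at day 0 to mostly Plvap-led cells at day 3. The part of this change in Kitl and Il3ra was not tested. In stromal-like cells Sdc1, a proteoglycan that binds IL-34, rose from 10.4 to 109 CPM (log2 3.43 ± 0.15, adjusted p = 3.9e-10). Of the 16 signalling genes 8 rose and 4 fell in stromal-like cells at day 3, where 65.9% of all genes were called. Tyrobp (log2 5.26), Ptpn6 (4.48) and, from the factor list, Spi1 (4.61) are genes of blood cells and moved with the myeloid RNA described above.

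Over 47 combinations of lineage and group, which share libraries and myeloid RNA, the genes whose mean levels were most like each member's were found by Pearson correlation of log2(CPM + 1), as a description. For Csf1r these were Clec4a1, Aif1, Lyz2, Mrc1 and Tbxas1 (r = 0.92 to 0.93), for Csf3r Clec4e, Trem1, F10, Klra2 and Fpr2 (0.92 to 0.96), and for Csf2ra Dpep2, Fcgr2b, Pira2, Ms4a6c and Siglece (0.89 to 0.91). For Csf2rb they were Nrros, St8sia4, Gch1, its neighbour Csf2rb2 and Lcp1 (0.88 to 0.90). Il34 was most like Tbx2, Daam2, Nr2f1, A830082K12Rik and Art3 (0.82 to 0.85), and Csf3 most like Raet1d, Nos2, Raet1e, Lrg1 and Il1a (0.77 to 0.85). Csf2 was most like the lymphocyte genes Gzma and Nkg7 and Ccr4, Ncr1 and Gm20069 (0.91). Its values rest on 36 to 192 UMIs in a group, of which the top 5 cells held 54.9% to 94.4%. Stromal-like cells held most of these UMIs at day 0, at day 7 and with p7N3. Csf1 had no close match, with at most 0.71 for Carhsp1, followed by Sepn1, Ptges, Atp11a and P4ha1 (0.67 for the last).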

How the data were processed

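Single cells were captured with a 3′ droplet kit, and the authors deposited UMI counts per gene and barcode for 19 libraries, made with Cell Ranger. The labels of 15 libraries name the human build GRCh38 and the others mm10, while all gene identifiers are of mouse, and coordinates here are of GRCm38. Library totals were 3019467 to 39870492 UMIs. The limits at 3 counts cover counting error only, while SD values were taken over libraries.

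Cells that had 500 or more genes and no more than 25% mitochondrial UMIs were clustered with scanpy 1.11.5 (2000 variable genes without 52 list genes, 30 components, 20 neighbours, Leiden resolution 0.8) into 33 clusters, of which 2 (3419 cells) stayed unnamed. No doublets were removed. Cells of a lineage were summed per library where there were at least 10, and sums were compared with edgeR 4.0.16 (TMM, filterByExpr, quasi-likelihood test, two-sided, Benjamini-Hochberg over all genes tested at 0.05), with the library as a block between lineages. The steps were tested on simulated data. Alternatives were DESeq2 1.42.0, RLE factors, total UMIs (chosen after seeing the data), no filter, at most 10% mitochondrial UMIs, removal of the top 3.9% of Scrublet scores, Leiden resolution 2, all groups in 1 fit, block choices and each library left out. Of the other pathway genes those called with at least 10 CPM were named, at most 4 per list and comparison, and some of these are not reported here. The members and lists were chosen with earlier results of these data known. Of 27 pairs of libraries within a group none were duplicates. Replicate numbers did not pair the libraries.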

Additional observations from a re-analysis of the deposited data

Results flagged for a closer look

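Of 128 sets of 4 libraries, 12 held a library far from the other 3 by Dixon's test, where chance alone flags about 1 in 20 sets. Day 0 replicate 1 was such a library for stromal-like Csf2 (24.9 CPM, the others at 0), Csf2ra in all cells (34.4 against 18.7 to 20.8), endothelial-like Csf2rb (37.4 against 21.7 to 22.7) and endothelial-like Csf3 (6.73 against 0 to 0.840). Day 7 replicate 1 stood apart for Csf2rb in all cells (60.2 against 28.3 to 33.6 CPM), stromal-like Csf2rb (5.96 against 3.35 to 3.41) and stromal-like Csf3 (3.37 against 0.865 to 1.22). Day 7 replicate 2 was low for Csf1 in all cells (16.5 against 22.9 to 23.2 CPM). At day 21, replicate 3 was high for Csf2 in all cells (2.63 against 0.0342 to 0.181 CPM) and stromal-like Csf2ra (14.8 against 10.6 to 11), and replicate 4 was low for Csf1 in pericyte/smooth muscle-like cells (22.7 against 28.1 to 29.2). Replicate 1 of p7N3 was high for Csf3 in all cells (64.2 against 4.49 to 11.2 CPM).

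Members also moved in opposite directions in different lineages, and these differences were not tested. Csf1r at day 3 fell in monocyte/macrophage-like cells (log2 -1.24) and rose in stromal-like (2.75) and endothelial-like cells (2.55), beside the myeloid RNA given for those lineages. From day 7 to day 21 the difference of Csf1 was log2 -1.28 in monocyte/macrophage-like cells, which missed the threshold, and 0.74 in endothelial-like cells.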

How the results depend on the processing

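Of 155 member effects tested, 95 were called, and none of 2258 alternative values reversed a call. Counts of members called moved by over 1.5 times in 7 comparisons, and by at most 2 members in the others with 1 library left out. In monocyte/macrophage-like cells from day 3 to day 7, 4 were called, against 2 with DESeq2 and 2 to 4 with 1 library left out. From day 7 to day 21, 1 was called there, against 2 with no filter, with at most 10% mitochondrial UMIs, without the top Scrublet scores or with all groups in 1 fit, and 3 at Leiden resolution 2. With p7N3 in stromal-like cells it was 0, against 1 with DESeq2 and 0 to 1 with 1 library left out. In endothelial-like cells 4 became 2 from day 3 to day 7 with the replicate number as a block, and 2 became 4 from day 7 to day 21 with no filter. Stromal-like against monocyte/macrophage-like cells at day 0, 4 became 8 with no filter, and granulocyte-like against monocyte/macrophage-like cells at day 7, 3 became 0 at Leiden resolution 2. The causes were not tested. Replicate numbers did not pair the libraries, since the correlation of same-numbered libraries was above 0.1 in 1 of 4 pairs at day 21 and in 2 of 4 with p7N3, and the best match was the own number in at most 1 of 3 or 4. With the number as a block, 6 member calls were lost and 2 gained. Over all genes, the block moved endothelial-like calls from day 3 to day 7 from 1211 to 339. DESeq2 called 2064 against 3225 genes in granulocyte-like against monocyte/macrophage-like cells at day 3 and 144 against 366 at day 7. With p7N3 in stromal-like cells edgeR called 22, against 454 with DESeq2, 47 with RLE factors, 107 with no filter, 88 with all groups in 1 fit and 13 with the block. In monocyte/macrophage-like cells it called 0, against 26 with DESeq2 and 41 with no filter, in endothelial-like cells 0 against 12 with no filter, and in all cells 0 against 158 with DESeq2 and 1 with all groups in 1 fit. Total UMIs in place of TMM shifted the median of all genes by -0.35 (log2) for day 3 against day 0 in all cells, 0.18 for day 7 against day 3 and -0.39 for granulocyte-like against monocyte/macrophage-like cells at day 3. The share of calls that were higher then went from 50.01% to 33.2%, from 51.7% to 67.6% and from 58.7% to 24.3%. It went from 52.2% to 68.5% for the last pair at day 7, from 43.4% to 61.9% for endothelial-like cells from day 3 to day 7, from 52.3% to 64.9% and from 47.9% to 38.0% for monocyte/macrophage-like cells to day 21 and to day 7, from 51.6% to 41.2% for stromal-like cells to day 21, from 49.2% to 62.1% and from 46.8% to 65.8% for endothelial-like against stromal-like cells at day 3 and day 7, and from 52.6% to 63.4% for stromal-like against monocyte/macrophage-like cells at day 7. The share of cells with a UMI of a member moved in 180 of 201 cases after each cell was thinned to 1500 UMIs. Depth limits Csf2 throughout and Csf3 and Csf3r at day 0, where few UMIs were counted.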
